A study of Rattus norvegicus with 21 samples.

Results

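The genes of RT1, the major histocompatibility complex (MHC) of the rat, were followed with their class II partners across 21 liver RNA-seq libraries in 7 groups of 3. The set was every gene whose name starts with RT1- in both deposited tables, plus Cd74 and Ciita, which gave 33 of the 32623 genes listed per table: 21 class I genes, 10 class II genes and the 2 partners. A member was described where it reached 0.5 FPKM (fragments per kilobase of transcript, scaled also to the depth of the library) in at least 3 libraries of a table. For either strain 26 members did so: 17 of class I, 7 of class II and both partners. The 12 Wistar libraries came from controls and early weaned rats, each at day 23 and at day 63 of age. The 9 Sprague Dawley libraries, in a table of their own, came from day 211 and comprised controls, early weaned rats, and early weaned rats given 1.5% leucine in the drinking water. The series asks how weaning too early programs adult obesity and liver fat and cholesterol metabolism, and whether leucine mitigates it. The labels give neither the sex nor the age at weaning, and leave unsaid whether the libraries of a group are from different animals. The p-values therefore describe the spread between these libraries alone. Strain and age differ together between the tables, so values were compared only within a table.

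MHC class I molecules are found on nearly all nucleated cells, where a heavy chain paired with beta-2-microglobulin (B2m) presents peptides made by the proteasome and brought in by the Tap1 and Tap2 transporter to CD8 T cells. MHC class II molecules are pairs of an alpha and a beta chain on professional antigen-presenting cells. They are assembled with the invariant chain Cd74, loaded with peptide by the DM molecule under the restraint of DO, and switched on by the transactivator Ciita, while Nlrc5 plays the corresponding part for class I. Interferon gamma raises both classes. In liver, Kupffer cells, dendritic cells, B cells and sinusoidal endothelium carry most class II, and hepatocytes carry class I at a low level. In RT1, the classical class I genes are RT1-A genes, the RT1-C/E, -M, -N, -S and -T24 genes are mostly non-classical class I genes, RT1-B and RT1-D are the class II pairs, and copy number and sequence differ between strains.

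The promoters of class II genes are known for an X box and a Y box, on which Ciita acts through bound factors, and those of class I genes for an upstream kappa B site within enhancer A, so 8 promoters of members that carry the results are shown for comparison. RefSeq promoters of build GRCr8 (250 bases before and 50 bases from the gene start, 5' to 3' on the gene's strand) were matched by symbol for 28 of the 33 members. Capitals mark matches on either strand to the Y box TGATTGG, to an X box core CTNGCAAC and to the kappa B site GGGGATTCCC, letters that were chosen after these promoters had been looked at and that do not overlap one another in the promoters shown. The windows lie at chr20:4515165-4515464 (+) for RT1-Da, chr20:4560113-4560412 (-) for RT1-Db1, chr20:4576807-4577106 (+) for RT1-Ba, chr20:4604069-4604368 (-) for RT1-Bb and chr20:4712286-4712585 (-) for RT1-DMa. Those of class I lie at chr20:4872621-4872920 (+) for RT1-A2, chr20:3484041-3484340 (-) for RT1-CE5 and chr20:3384930-3385229 (-) for RT1-CE10.
RT1-Da: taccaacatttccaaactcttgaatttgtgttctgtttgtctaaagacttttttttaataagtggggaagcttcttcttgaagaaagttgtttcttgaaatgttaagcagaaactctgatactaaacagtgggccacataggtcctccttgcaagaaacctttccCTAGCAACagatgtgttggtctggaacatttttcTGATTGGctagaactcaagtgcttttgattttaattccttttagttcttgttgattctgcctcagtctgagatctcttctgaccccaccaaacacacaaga
RT1-Db1: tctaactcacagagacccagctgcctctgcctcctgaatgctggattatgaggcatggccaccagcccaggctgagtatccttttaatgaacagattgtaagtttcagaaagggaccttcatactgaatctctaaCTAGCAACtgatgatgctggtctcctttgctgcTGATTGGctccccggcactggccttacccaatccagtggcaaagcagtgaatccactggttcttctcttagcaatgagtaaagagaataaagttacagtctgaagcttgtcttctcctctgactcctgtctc
RT1-Ba: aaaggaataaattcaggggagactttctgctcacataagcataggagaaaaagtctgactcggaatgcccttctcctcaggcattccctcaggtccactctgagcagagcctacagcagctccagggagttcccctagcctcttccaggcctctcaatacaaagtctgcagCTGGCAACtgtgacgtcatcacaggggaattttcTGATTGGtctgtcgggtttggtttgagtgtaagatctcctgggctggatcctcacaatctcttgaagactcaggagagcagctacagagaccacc
RT1-Bb: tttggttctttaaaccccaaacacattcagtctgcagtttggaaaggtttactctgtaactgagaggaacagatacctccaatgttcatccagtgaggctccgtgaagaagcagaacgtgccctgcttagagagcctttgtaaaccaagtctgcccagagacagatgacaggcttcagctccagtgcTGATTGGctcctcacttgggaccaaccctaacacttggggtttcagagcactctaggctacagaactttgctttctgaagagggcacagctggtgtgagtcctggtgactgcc
RT1-DMa: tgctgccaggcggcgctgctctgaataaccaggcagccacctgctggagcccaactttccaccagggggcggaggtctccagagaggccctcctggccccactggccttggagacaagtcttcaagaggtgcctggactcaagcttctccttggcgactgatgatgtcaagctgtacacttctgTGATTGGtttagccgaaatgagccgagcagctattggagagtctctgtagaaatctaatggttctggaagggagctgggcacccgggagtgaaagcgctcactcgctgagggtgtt
RT1-A2: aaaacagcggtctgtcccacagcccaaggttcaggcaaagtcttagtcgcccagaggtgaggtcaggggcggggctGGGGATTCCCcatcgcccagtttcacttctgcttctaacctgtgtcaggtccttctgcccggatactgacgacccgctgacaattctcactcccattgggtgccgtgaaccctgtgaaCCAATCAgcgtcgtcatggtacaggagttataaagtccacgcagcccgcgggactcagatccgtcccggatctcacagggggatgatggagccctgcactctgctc
RT1-CE5: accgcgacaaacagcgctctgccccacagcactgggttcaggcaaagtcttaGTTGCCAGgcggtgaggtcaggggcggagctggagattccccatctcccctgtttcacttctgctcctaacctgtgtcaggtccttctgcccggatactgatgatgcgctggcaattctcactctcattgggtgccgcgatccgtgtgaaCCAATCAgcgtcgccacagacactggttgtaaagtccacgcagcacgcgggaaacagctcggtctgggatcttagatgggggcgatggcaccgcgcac
RT1-CE10: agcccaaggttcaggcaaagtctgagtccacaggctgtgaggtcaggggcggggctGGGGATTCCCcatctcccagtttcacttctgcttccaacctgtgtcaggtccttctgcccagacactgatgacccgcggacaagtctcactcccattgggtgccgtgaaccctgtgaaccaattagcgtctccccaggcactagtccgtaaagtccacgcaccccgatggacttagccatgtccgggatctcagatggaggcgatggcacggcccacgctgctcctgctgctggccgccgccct

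The Y box letters were in 9 of the 9 class II promoters and in 9 of the 18 class I promoters, against 7.06% of all 33469 promoters of the same length. All class II matches were on the gene's strand, whereas those of RT1-A1, RT1-A2, RT1-CE4, RT1-CE5, RT1-M3-1 and RT1-S3 were the reverse complement CCAATCA. The match of RT1-M3-1 lay past the gene start. The X box core was in 4 class II promoters (RT1-Ba, RT1-DOb, RT1-Da and RT1-Db1) and 2 class I promoters (RT1-CE4 and RT1-CE5), against 3.64% of all. Its class I matches were the reverse complement GTTGCCAG. In those 4 class II promoters the X box core began 34, 31, 34 and 33 bases before the Y box, in the order named. The kappa B letters were taken from the RT1-A2 promoter itself, so the RT1-A2 match was fixed in advance and the count is no test. They were in 4 class I promoters (RT1-A1, RT1-A2, RT1-CE10 and RT1-CE4), in 0 of the 9 class II promoters, and in 38 promoters of all, or 0.114%. RT1-DMa, RT1-Bb, RT1-DOa, RT1-Db2 and RT1-Ha held the Y box letters but not those of the X box core in these windows. Whether this bears on their levels was not tested. These are letter matches in a reference build and not measured sites.

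The libraries held 52054644 to 75118153 estimated counts and 10250 to 11082 genes at 1 FPKM or more. Summed hepatocyte markers reached 56579 to 120986 FPKM in the Wistar table, as the liver label implies. Day 63 control replicate 1 stood apart for class II, with a summed class II level of 246 FPKM against 43.2 and 51.1 FPKM in the other two libraries of its group, and the main results of its group are also given without it. Several RT1 genes are near copies, and their intervals in the tables overlap on the same strand: RT1-CE1 shares 262230 bases with RT1-CE4, and RT1-A1 shares 3555 bases with RT1-A2. How fragments were divided among such copies is not given in the sources used here, so single levels of these genes are uncertain. In bulk liver, fewer cells of a type and less RNA per cell cannot be told apart.

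Among class II genes the RT1-D pair and the RT1-B pair were low at day 23 and higher at day 63, and Cd74 was the most abundant of the class II members and partners in every library. Cd74 (ENSRNOG00000018735, chromosome 18, 56071478 to 56080849 on the plus strand in the tables, which name no rat build) read 24.1, 20.6 and 32.3 FPKM in the day 23 controls and 17.4, 21.6 and 18.8 FPKM in the day 23 early weaned libraries. At day 63 it read 434, 127 and 91.7 FPKM in the controls and 132, 101 and 68.2 FPKM in the early weaned libraries. All 6 day 63 libraries lay above all 6 day 23 libraries, and day 63 control replicate 1 was the highest. RT1-Da (chromosome 20, 4127644 to 4132616, minus strand), the alpha chain of the RT1-D molecule, read 4.84, 4.52 and 5.92 FPKM in the day 23 controls and 82.2, 20.2 and 15.9 FPKM in the day 63 controls. In the early weaned libraries RT1-Da read 3.79, 4.01 and 3.99 FPKM at day 23 and 24.9, 19.8 and 12.3 FPKM at day 63. The ages did not overlap for RT1-Da in either group.

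RT1-Db1, the RT1-D beta chain, read 1.11, 0.88 and 2.12 FPKM in the day 23 controls against 48.5, 8.2 and 8.77 FPKM in the day 63 controls. The early weaned libraries of RT1-Db1 went from 0.7, 1.71 and 1.38 FPKM at day 23 to 6.48, 6 and 6.55 FPKM at day 63. The 3 early weaned day 63 values were close together and all below the lowest control value of that age. RT1-Ba (chromosome 20, 4066132 to 4070721, minus strand), the alpha chain of RT1-B, read 1.57, 1.75 and 2.51 FPKM in the day 23 controls and 85.9, 5.47 and 18.7 FPKM in the day 63 controls. Its early weaned libraries read 2.01, 5.01 and 5.14 FPKM at day 23 and 9.23, 7.39 and 17.4 FPKM at day 63. RT1-Ba spread most among the day 63 controls, where its highest and lowest libraries enclosed every early weaned library of that age. RT1-Bb, the beta chain of RT1-B, read 1.29, 0.94 and 2.01 FPKM in the day 23 controls and 16.7, 1.92 and 4.67 FPKM in the day 63 controls. For RT1-Bb the early weaned libraries read 0.75, 0.88 and 0.85 FPKM at day 23 and 2.42, 5.25 and 4.96 FPKM at day 63. The ages overlapped for RT1-Bb in the controls and did not overlap in the early weaned groups.

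The peptide loading genes are given next. RT1-DMa (chromosome 20, 3935529 to 3938915, plus strand), the alpha chain of the DM molecule, read 2.99, 4.18 and 1.88 FPKM in the day 23 controls and 3.66, 2.38 and 0.92 FPKM in the day 63 controls. In the early weaned libraries RT1-DMa read 6.99, 2.67 and 3.05 FPKM at day 23 and 1.46, 1.46 and 1.05 FPKM at day 63. The early weaned ages did not overlap, with the older libraries lower, while the control ages did overlap. RT1-DMb, its partner chain, read 3.54, 1.52 and 4.08 FPKM in the day 23 controls and 7.8, 4.11 and 1.27 FPKM in the day 63 controls, and its early weaned libraries read 4.39, 3.84 and 3 FPKM at day 23 and 0.36, 3.51 and 3.54 FPKM at day 63. The DMb groups overlapped at both ages. RT1-DOa, a chain of the DO molecule that restrains DM, read 0.07, 0 and 0.33 FPKM and then 0.61, 0.31 and 0.45 FPKM in the controls, and 0.06, 0.01 and 0.08 FPKM and then 0.84, 0.88 and 0.46 FPKM in the early weaned libraries, just enough to be described (3 libraries past 0.5 FPKM). RT1-DOb, its partner, just missed that level with 2 such libraries: it read 0.06, 0 and 0.22 FPKM and then 0.42, 0.46 and 0.32 FPKM in the controls, and 0.03, 0.06 and 0 FPKM and then 0.79, 0.61 and 0.42 FPKM in the early weaned libraries. Both DO chains were near the limit of detection at day 23. Ciita (chromosome 10, 5213350 to 5260608, minus strand) read 0.07, 0.05 and 0.19 FPKM in the day 23 controls and 1.63, 0.66 and 0.43 FPKM in the day 63 controls. Its early weaned libraries read 0.06, 0.13 and 0.14 FPKM at day 23 and 0.5, 0.62 and 0.52 FPKM at day 63, with no overlap of the ages in either group.

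**Figure D1:**
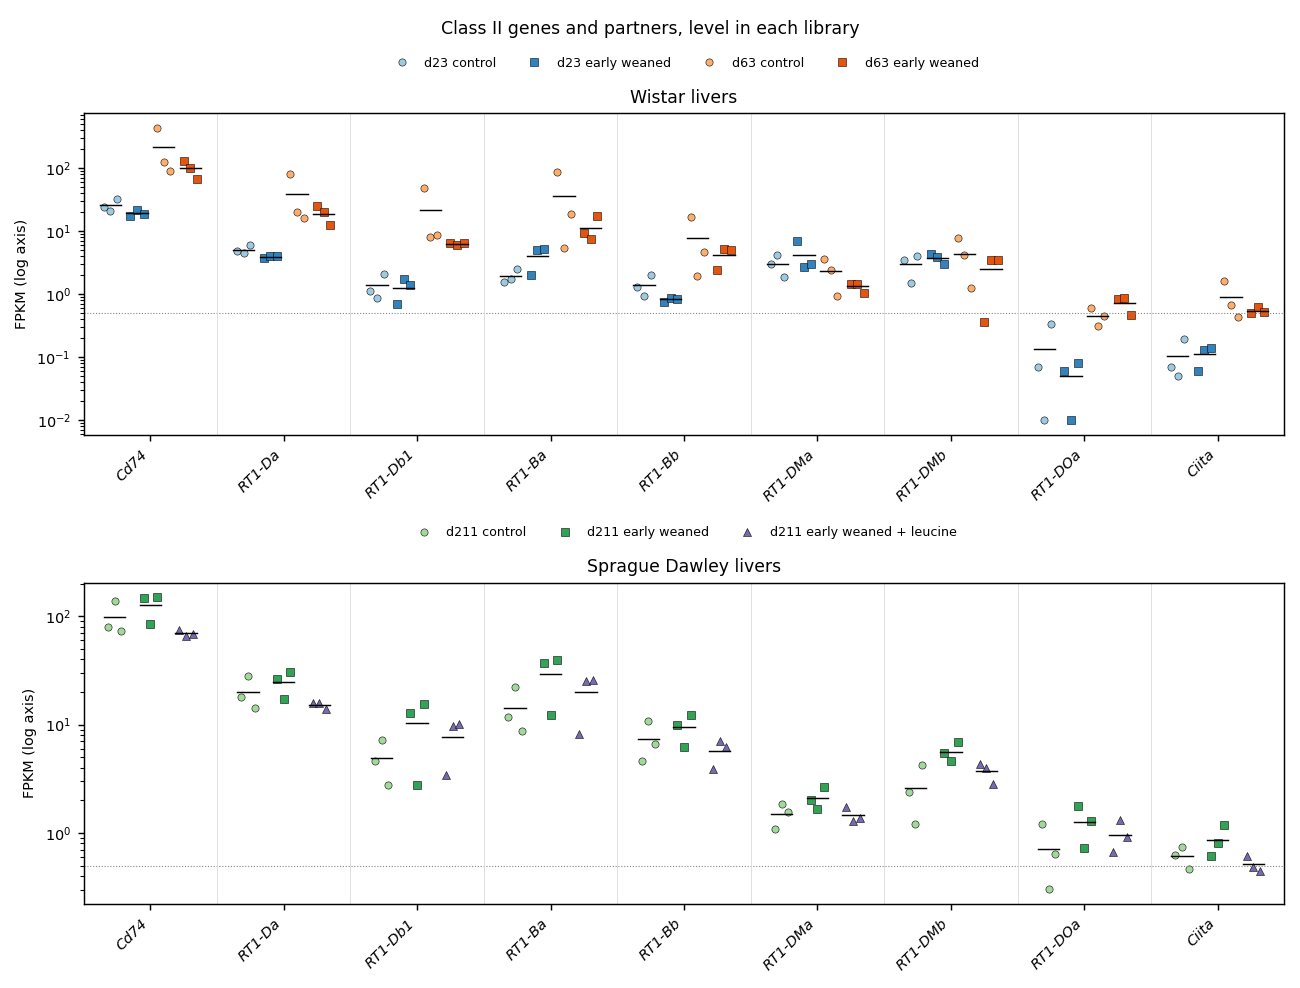
FPKM (log axis) of Cd74, Ciita and the class II members in each library, by group, with the Wistar and Sprague Dawley tables apart; points are libraries, short black lines are group means, the dotted line is 0.5 FPKM, and values of 0 are drawn at the lowest level shown. Cd74 and RT1-Da sit higher in all 6 day 63 libraries than in all 6 day 23 libraries, and day 63 control replicate 1 is the highest point for Cd74 at 434 FPKM.

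RT1-A2, RT1-S3 and RT1-CE5 were the 3 most abundant class I genes in the day 63 controls. RT1-A2 (chromosome 20, 5374985 to 5378539, plus strand), a classical class I gene, read 27.2, 29.9 and 41 FPKM in the day 23 controls and 262, 126 and 173 FPKM in the day 63 controls. Early weaned libraries of RT1-A2 read 11.9, 32.7 and 31.7 FPKM at day 23 and 112, 90.5 and 122 FPKM at day 63. The ages did not overlap in either group. RT1-S3 (chromosome 20, 3176107 to 3179818, plus strand), a class I gene of the S group, read 28.6, 29.2 and 22.7 FPKM in the day 23 controls and 81.8, 111 and 69.8 FPKM in the day 63 controls, and 21.9, 36.5 and 18.6 FPKM and then 70.4, 77.4 and 60.8 FPKM in the early weaned libraries. RT1-CE5 (chromosome 20, 4892702 to 4896991, minus strand), of the C/E cluster, read 7.42, 8.29 and 9.15 FPKM in the day 23 controls and 77.1, 63.1 and 61.4 FPKM in the day 63 controls. Its early weaned libraries read 22.6, 14.5 and 13.8 FPKM at day 23 and 46.3, 30.1 and 41.7 FPKM at day 63. The early weaned libraries of RT1-CE5 thus lay between the day 23 and day 63 controls at both ages, above the former and below the latter, without overlap.

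RT1-A1, the neighbour of RT1-A2, read 6.5, 6.47 and 7.75 FPKM in the day 23 controls and 34.6, 18.7 and 23.2 FPKM in the day 63 controls, and in the early weaned libraries 7.43, 7.56 and 6.36 FPKM at day 23 and 12.9, 20.6 and 21.3 FPKM at day 63. RT1-CE7 read 4.09, 4.37 and 3.57 FPKM, then 23, 14.7 and 14.2 FPKM, in the controls, and 4.84, 4.93 and 4.89 FPKM, then 10.8, 12.4 and 16 FPKM, in the early weaned libraries. Neither gene overlapped between the ages. RT1-CE10 was far less even, with 0.35, 0.87 and 0.55 FPKM in the day 23 controls, 0.69, 7.94 and 6.89 FPKM in the day 23 early weaned libraries, 34.6, 7.25 and 24 FPKM in the day 63 controls and 6.03, 3.94 and 23.3 FPKM in the day 63 early weaned libraries. RT1-N2 read 0.19, 0.22 and 0.31 FPKM in the day 23 controls and 0.67, 1.36 and 0.78 FPKM in the early weaned libraries of that age, then 8.96, 35 and 2.32 FPKM in the day 63 controls and 26.8, 2.16 and 1.36 FPKM in the early weaned. The day 23 control counts of RT1-N2 were low, at 24, 27 and 39 units. In each day 63 group 1 library of RT1-N2 stood well above the other two, and the ages of RT1-CE10 and of RT1-N2 overlapped only in the early weaned libraries.

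RT1-CE3 read 0.89, 0.64 and 1.19 FPKM in the day 23 controls, 1.87, 2.63 and 2.67 FPKM in the day 23 early weaned libraries, 8.19, 6.63 and 6.31 FPKM in the day 63 controls and 5.19, 2.43 and 5.52 FPKM in the day 63 early weaned libraries. RT1-CE1 (chromosome 20, 4638663 to 4943564, minus strand) read 0.87, 0.76 and 1.44 FPKM and 0.54, 2.66 and 1.72 FPKM at day 23, then 9.53, 7.38 and 6.74 FPKM and 4.11, 1.97 and 4.44 FPKM at day 63, controls first. RT1-CE4 read 1.67, 2.1 and 2.55 FPKM and 3.3, 1.35 and 3.04 FPKM at day 23, then 10.4, 8.77 and 7.94 FPKM and 6.1, 4.54 and 5.61 FPKM at day 63, controls first. For each of these 3 C/E genes every day 63 control lay above every day 63 early weaned library. RT1-T24-3 read 1.47, 3.07 and 3.1 FPKM in the day 23 controls and 9.69, 12.2 and 8.09 FPKM in the day 63 controls, and 2.92, 5.67 and 2.05 FPKM and then 6.66, 6.37 and 5.59 FPKM in the early weaned libraries. RT1-T24-4 read 16.8, 22.2 and 19.1 FPKM and 19.7, 25.3 and 20.1 FPKM in the controls of the same ages. In the early weaned libraries RT1-T24-4 read 13.6, 6.96 and 5.92 FPKM at day 23 and 18.2, 26.6 and 14.6 FPKM at day 63, so its early weaned day 23 libraries were the low ones. RT1-M2, a gene of the M region, read 2.34, 3.72 and 3.73 FPKM and 1.33, 1.84 and 2.33 FPKM at day 23, and 9.11, 3.9 and 2.5 FPKM and 4.75, 4.44 and 4.05 FPKM at day 63, controls first. RT1-M2 overlapped between the ages in the controls and did not overlap in the early weaned libraries.

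RT1-N3 read 0.89, 1.35 and 1.75 FPKM in the day 23 controls, 1.19, 1.88 and 0.66 FPKM in the early weaned libraries of that age, 3.85, 10.3 and 1.96 FPKM in the day 63 controls and 7.66, 2.11 and 1.96 FPKM in the early weaned. Its high libraries at day 63 were those that were high for RT1-N2. RT1-T24-1 read 0.3, 1.1 and 1.84 FPKM, then 1.8, 1.39 and 1.07 FPKM, then 1.4, 2.4 and 1.46 FPKM, then 1.33, 0.75 and 0.95 FPKM, in the same order of groups, which overlapped between the ages. RT1-M3-1 (0.74 to 2.9 FPKM) and RT1-M6-1 (0 to 1.86 FPKM) were the remaining described class I members in the Wistar table. The members under the level in both tables were RT1-DOb, RT1-M6-2, RT1-Db2, RT1-Ha, RT1-M4, RT1-M5 and RT1-S2. RT1-M6-2 reached 0.54 FPKM at most in the Wistar table, and like RT1-DOb it passed 0.5 FPKM in 2 libraries there. RT1-Db2, RT1-Ha, RT1-M4, RT1-M5 and RT1-S2 reached at most 0.268 FPKM in any of the 21 libraries, and their counts were too low to be tested.

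**Figure D2:**
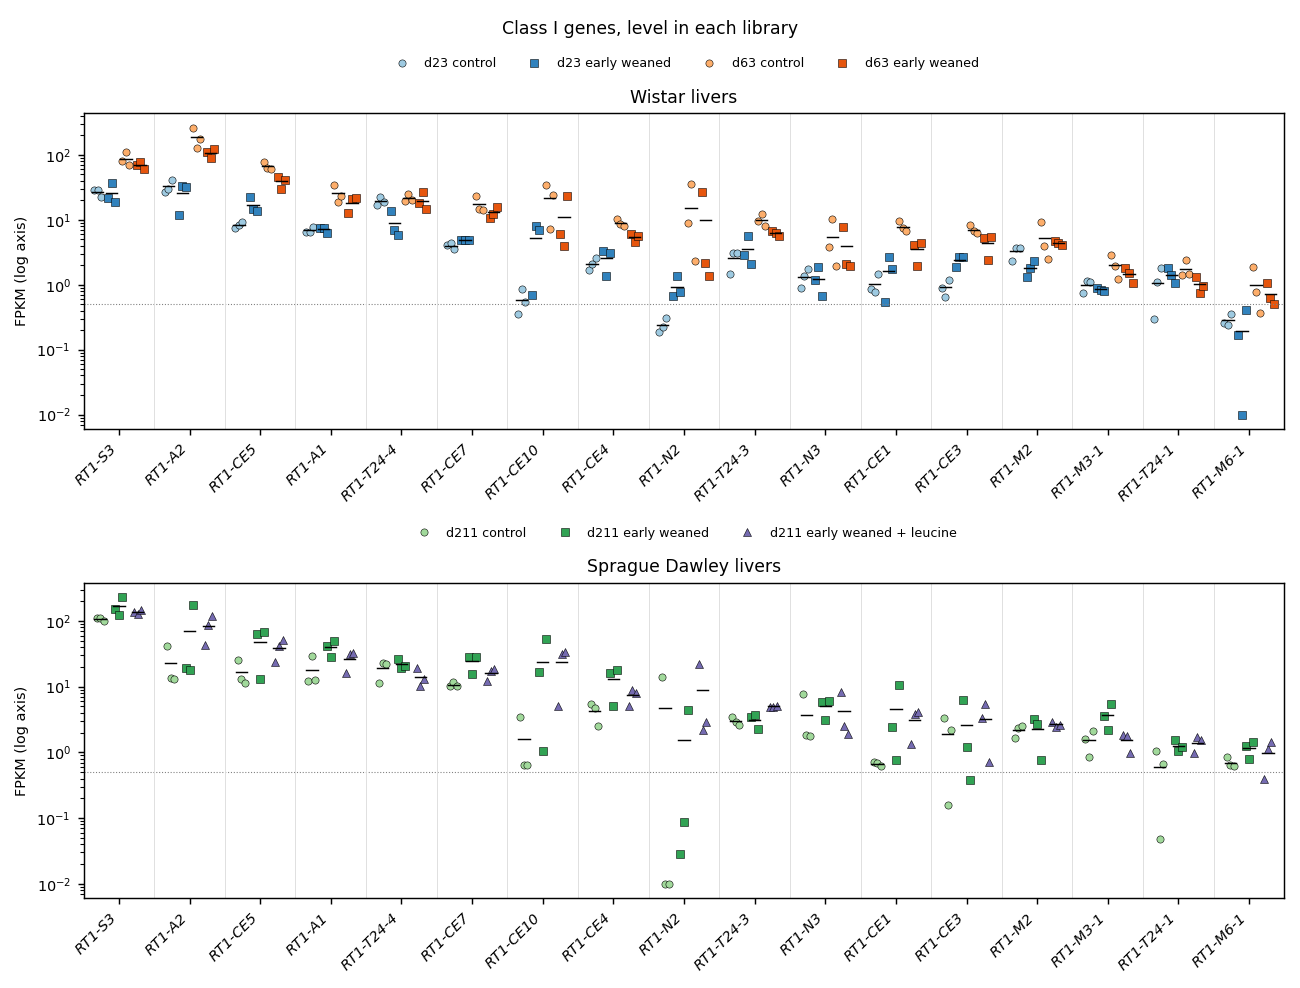
FPKM (log axis) of the described class I members in each library, by group, with the tables apart; points are libraries, short black lines are group means, the dotted line is 0.5 FPKM, and values of 0 are drawn at the lowest level shown. RT1-A2, RT1-S3 and RT1-CE5 are higher in the day 63 than in the day 23 libraries, and RT1-N2 and RT1-CE10 scatter widely within groups.

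Between day 23 and day 63 most tested members rose in the controls: 11 of 18 tested class I genes, 4 of 8 tested class II genes, Cd74 and Ciita were called higher, and 0 lower. These 17 of 28 tested members stood beside 7.97% of the 15416 genes tested that rose and 9.61% that fell in that comparison (edgeR quasi-likelihood test, Benjamini-Hochberg adjusted p under 0.05 over all genes). The median log2 change was 2.01 for class I and 2.25 for class II, against -0.04 over all genes tested. Of the tested members, 21 did not overlap between the ages and were higher at day 63, where 16.7% of all genes did so. Cd74 rose by a log2 change of 3.10 (SE 0.532, adjusted p = 0.00696, n = 3 per group, edgeR), from a mean of 25.6 to 218 FPKM. RT1-Da rose by 2.97 (SE 0.554, adjusted p = 0.00912, edgeR), RT1-Db1 by 4.0 (SE 0.715, adjusted p = 0.00825, edgeR) and RT1-Ba by 4.25 (SE 0.88, adjusted p = 0.0131, edgeR). RT1-Bb rose by 2.47 (adjusted p = 0.0302, edgeR) although its ages overlapped, and Ciita rose by 3.08 (SE 0.618, adjusted p = 0.0118, edgeR). The peptide loading genes did not pass the test: the log2 change was -0.36 for RT1-DMa (adjusted p = 0.642, edgeR), 0.54 for RT1-DMb (adjusted p = 0.65, edgeR) and 1.72 for RT1-DOa (adjusted p = 0.254, edgeR).

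Without day 63 control replicate 1, the class II changes were smaller: 2.09 for Cd74 (adjusted p = 0.00755), 1.82 for RT1-Da (adjusted p = 0.00777), 2.61 for RT1-Db1 (adjusted p = 0.00998), 2.62 for RT1-Ba (adjusted p = 0.0336) and 2.34 for Ciita (adjusted p = 0.0419), all by edgeR. RT1-Bb then had a log2 change of 1.21 (adjusted p = 0.118, edgeR) and was no longer called, so 16 members were called. That fit called 859 of all genes, where 2710 were called with all libraries. Without day 63 control replicate 1 the median was 1.91 for class I and 1.64 for class II, with RT1-A2 at 2.18, RT1-CE5 at 2.91 and RT1-S3 at 1.75 (all called), while RT1-M2 stood at -0.03. Leaving out day 23 control replicate 1 left 12 calls (646 over all genes), with RT1-Ba at an adjusted p of 0.0613, Ciita at 0.0558, RT1-N2 at 0.0761, RT1-CE10 at 0.0577 and RT1-Bb at 0.108 (edgeR). Leaving out day 23 control replicate 2 left 14 calls (744 over all genes), with RT1-Ba at 0.0575, RT1-N2 at 0.0712 and RT1-Bb at 0.112 (edgeR). Without day 23 control replicate 3, RT1-DOa passed, with a log2 change of 3.51 (adjusted p = 0.0259, edgeR). RT1-Bb was also not called with the replicate number as a block (adjusted p = 0.0624, edgeR) or by limma (adjusted p = 0.0602 and 0.0594). RT1-Db1 was called in the 12 alternatives that gave it an adjusted p, and DESeq2 gave it none.

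Class I genes across the A, C/E, N, S and T24 groups rose in the controls. RT1-CE5 rose by a log2 change of 3.03 (SE 0.236, adjusted p = 0.000244, edgeR), from a mean of 8.29 to 67.2 FPKM, RT1-A2 by 2.52 (SE 0.393, adjusted p = 0.00433, edgeR) from 32.7 to 187 FPKM, and RT1-S3 by 1.71 (SE 0.274, adjusted p = 0.00504, edgeR) from 26.8 to 87.4 FPKM. RT1-A1 rose by 1.89 (adjusted p = 0.00235, edgeR), RT1-CE7 by 2.12 (adjusted p = 0.000716, edgeR), RT1-CE3 by 2.94 (adjusted p = 0.00126, edgeR), RT1-CE4 by 2.11 (adjusted p = 0.00249, edgeR) and RT1-CE1 by 2.94 (adjusted p = 0.00846, edgeR). RT1-CE10 rose by 5.22 (SE 1.05, adjusted p = 0.0118, edgeR) and RT1-N2 by 5.96 (SE 1.34, adjusted p = 0.0172, edgeR), the largest changes and the least precise. RT1-T24-3 rose by 1.98 (adjusted p = 0.0105, edgeR), whereas its neighbour by name, RT1-T24-4, stood at 0.17 (SE 0.305, adjusted p = 0.716, edgeR). RT1-M2 at 0.68 (adjusted p = 0.268) and RT1-M3-1 at 1.03 (adjusted p = 0.0516) did not pass in edgeR.

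In the early weaned rats the same ages gave 17 members higher and 1 lower of 28 tested: 10 class I genes, 5 class II genes, Cd74 and Ciita rose, and RT1-DMa fell. Over all genes 13.5% rose and 13.5% fell in this comparison. Of the members, 19 did not overlap between the ages and were higher at day 63 (21.3% of all genes) and 1 was lower (31%). The median log2 change was 1.33 for class I and 2.41 for class II, against -0.02 over all genes. Cd74 rose by 2.50 (SE 0.519, adjusted p = 0.00845, edgeR), RT1-Da by 2.39 (SE 0.542, adjusted p = 0.0114, edgeR), RT1-A2 by 2.21 (SE 0.388, adjusted p = 0.00454, edgeR), RT1-S3 by 1.55 (SE 0.272, adjusted p = 0.00448, edgeR) and RT1-CE5 by 1.33 (SE 0.223, adjusted p = 0.00375, edgeR). These 5 genes, with RT1-A1 (1.49), RT1-CE7 (1.54) and RT1-CE4 (1.21), were the 8 members called in all 13 alternative settings. The other calls were less firm. RT1-DMa had a log2 change of -1.54 (SE 0.512, adjusted p = 0.0465, edgeR), from a mean of 4.24 to 1.32 FPKM. It was called in 0 of the 6 fits that left out 1 library, and without day 23 early weaned replicate 1 its log2 change was -0.98 (adjusted p = 0.187, edgeR).

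RT1-DOa (log2 change 3.77, adjusted p = 0.0304) and RT1-M2 (1.38, adjusted p = 0.0344) likewise passed in edgeR with all libraries and in 0 of those 6 fits, with highest adjusted p-values of 0.0945 and 0.111. RT1-DOb (4.32, adjusted p = 0.0268), RT1-Db1 (2.44, adjusted p = 0.0235), RT1-Bb (2.46, adjusted p = 0.0223), RT1-CE3 (0.99, adjusted p = 0.0459) and RT1-N2 (3.51, adjusted p = 0.0472) passed in 1 of the 6 each (edgeR). RT1-N2 rested on day 63 early weaned replicate 1, without which its log2 change was 1.03 (adjusted p = 0.394, edgeR). RT1-T24-4 rose by 1.29 (SE 0.31, adjusted p = 0.0145, edgeR) and Ciita by 2.40 (SE 0.602, adjusted p = 0.0168, edgeR), and each passed in 4 of the 6. RT1-T24-4 did not pass without day 23 early weaned replicate 2 (adjusted p = 0.0554) or day 63 early weaned replicate 2 (adjusted p = 0.0599), and Ciita did not pass without day 23 early weaned replicate 1 (adjusted p = 0.0603) or day 63 early weaned replicate 2 (adjusted p = 0.0519), all by edgeR. RT1-Ba (1.61, adjusted p = 0.147) and RT1-CE10 (1.23, adjusted p = 0.315) did not pass in the early weaned rats by edgeR. RT1-T24-3 (0.91, adjusted p = 0.0909) and RT1-CE1 (1.21, adjusted p = 0.0947) missed the threshold with all libraries and passed without day 23 early weaned replicate 2 (adjusted p = 0.0225 and 0.0489, edgeR).

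Of the members called, 13 were called in both the controls (13 of 17) and the early weaned rats (13 of 18). RT1-Ba, RT1-CE1, RT1-CE10 and RT1-T24-3 were called in the controls alone, and RT1-DMa, RT1-DOa, RT1-DOb, RT1-M2 and RT1-T24-4 in the early weaned rats alone. The difference between the age changes was itself tested as a weaning by age interaction, and edgeR called 0 of 28 members, where it called 0.00649% of all genes. At an unadjusted p under 0.05 there were 7 members (4.72% of all genes). DESeq2 called 2 of the 28, beside 46 of all genes, and limma called 0. No member was therefore shown to change with age differently in early weaned rats by edgeR or limma.

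**Figure D3:**
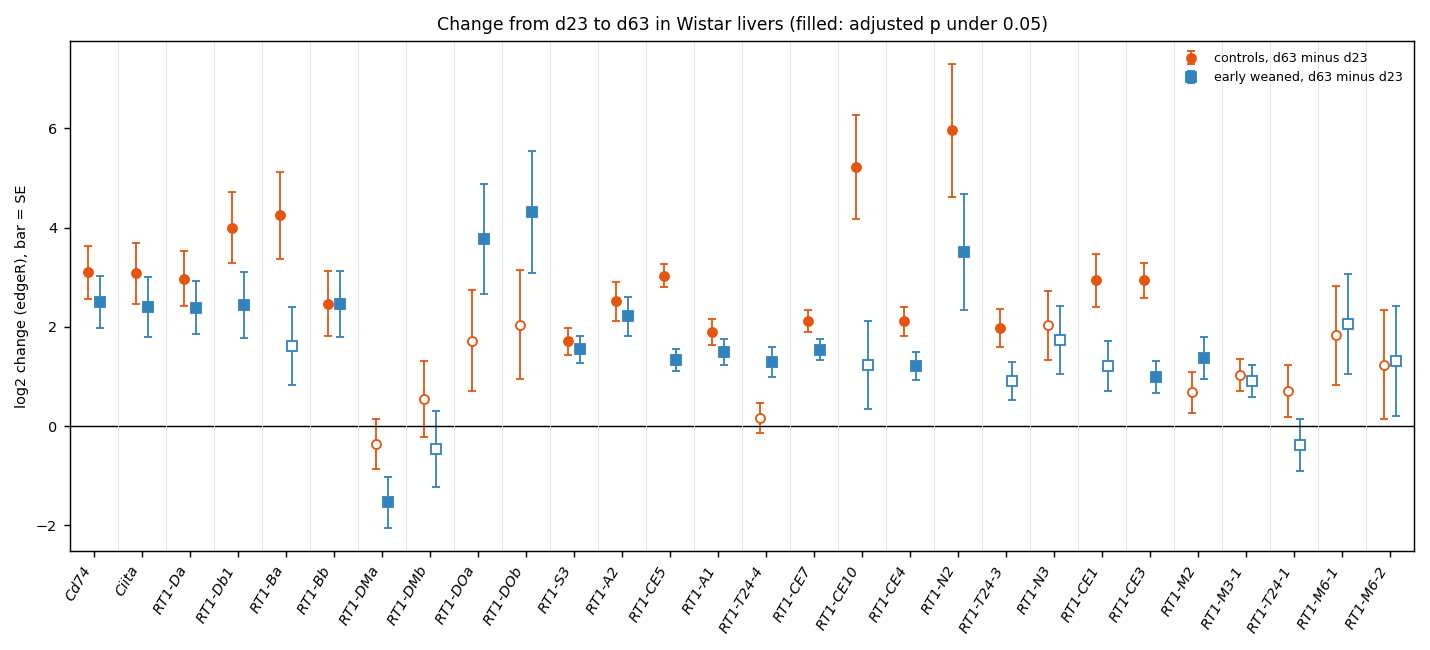
Log2 change from day 23 to day 63 for each tested member (horizontal axis) in controls and in early weaned rats; bars are standard errors, and filled points have an edgeR adjusted p under 0.05. Most members lie above 0 in both groups, with RT1-DMa below it at -0.36 in controls and -1.54 in early weaned rats.

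Genes that serve the class I molecule also rose between the ages. Of 15 genes of the class I pathway on a list chosen for this report, 14 rose in the controls from day 23 to day 63 (7.97% of all genes). B2m, the light chain, read 154, 199 and 268 FPKM in the day 23 controls and 1072, 814 and 776 FPKM in the day 63 controls, a log2 change of 2.11 (adjusted p = 0.000716, edgeR). The immunoproteasome subunit Psmb8 rose by 4.08 (adjusted p = 0.000338, edgeR), the peptide transporter Tap1 by 2.98 (adjusted p = 0.00115, edgeR) and the transactivator Nlrc5 by 4.49 (adjusted p = 0.0114, edgeR). Without day 63 control replicate 1, 9 of the 15 were called higher, beside 466 of 15836 genes, with B2m at 1.94 and Tap1 at 2.73. Nlrc5 was called in 5 of the 6 fits that left out 1 library (highest adjusted p = 0.0523, edgeR). In the early weaned rats 10 of the 15 rose (13.5% of all genes), among them B2m by 2.17 (adjusted p = 0.000485, edgeR) and Tap1 by 2.46 (adjusted p = 0.00186, edgeR). Of 12 further genes of the class II pathway, which include lysosomal proteases shared by many cells, 1 rose and 1 fell in the controls. Over all genes 7.97% rose and 9.61% fell, so both counts are near those shares. They were the cathepsins Ctsb, at a log2 change of 0.74, and Ctsl, at -1.28, each called in 1 of the 6 fits that left out 1 library. Of 15 genes of the interferon gamma axis 9 rose in the controls (7.97% of all genes) and 10 in the early weaned rats (13.5% of all genes), including Cxcl9, a chemokine induced by interferon gamma (3.91 in the controls, adjusted p = 0.00478, edgeR). Without day 63 control replicate 1, 4 of those 15 were called higher in the controls, where 466 of 15836 genes were.

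Markers of cells that carry MHC were counted beside the 7.97% and 13.5% of all genes that rose with age in the controls and in the early weaned rats. Of the T and NK cell markers 5 of 10 rose in the controls and 3 of 10 in the early weaned rats. Of the B cell markers 1 of 7 rose in the controls (Jchain, 3.13) and 3 of 7 in the early weaned rats, and of the dendritic cell markers 1 of 8 and 3 of 8. A single call in a list of this size is near the share over all genes. Of 13 macrophage and Kupffer cell markers 1 rose (Lyz2, 1.78) and 1 fell (Cd163, which fell by 0.80) in the controls, and of 7 sinusoidal endothelial markers 0 rose, while 2 fell in the controls and 4 in the early weaned rats. Without day 63 control replicate 1 the controls had 1 of 10 T and NK cell, 0 of 7 B cell, 0 of 8 dendritic cell and 0 of 13 macrophage markers called higher. That fit called 466 of 15836 genes higher. Its log2 changes were positive for 10 of 10 T and NK cell markers (median 1.67) and 6 of 7 B cell markers (median 2.03). They were positive for 7 of 8 dendritic cell (median 0.69) and 5 of 13 macrophage markers (median -0.18). The summed B cell markers were at 2.71 to 6.26 FPKM in the day 23 controls and 13.2 to 22.5 FPKM in the day 63 controls, against 2.28 to 3.78 and 5.4 to 14.1 FPKM in the early weaned libraries. Summed dendritic cell markers were at 3.45 to 4.1 and 4.92 to 8.25 FPKM in the controls and at 2.45 to 5.18 and 4.12 to 5.45 FPKM in the early weaned libraries. Summed T and NK cell markers were at 10.4 to 11.7 and 15.5 to 24.9 FPKM in the controls and at 9.82 to 10.1 and 10.7 to 10.9 FPKM in the early weaned libraries. Macrophage markers were at 490 to 709 and 454 to 912 FPKM in the controls and at 507 to 628 and 363 to 473 FPKM in the early weaned libraries. The B cell gene Pax5 and the T cell gene Cd8b were at 0 in all 6 day 23 libraries, but other markers of both lists were counted there. In single day 23 libraries, 2 to 4 of the 8 B cell markers listed and 1 to 4 of the 10 T and NK cell markers had a count of 0. At day 63 the numbers were 0 to 2 in either list. The part of these cells in the RT1 levels was not tested.

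Early weaning at day 23 changed no member by the edgeR test: 0 of 28 were called, where 0.013% of all genes were. At an unadjusted p under 0.05 there were 4 members (6.2% of all genes). DESeq2 called 3 of the 28, beside 113 of all genes, and limma called 0. The median log2 change was 0.13 for class I and -0.27 for class II, against -0.03 over all genes. In 4 members every early weaned library was above every control (4.18% of all genes) and in 4 every one was below (4.12%). The higher ones were the class I genes RT1-CE5 (log2 change 1.01, SE 0.221, adjusted p = 0.362, edgeR), RT1-CE3 (1.35, adjusted p = 0.509, edgeR), RT1-N2 (1.90, adjusted p = 0.9, edgeR) and RT1-CE7 (0.26, adjusted p = 0.958, edgeR). The lower ones were the class I genes RT1-T24-4 (-1.16, SE 0.31, adjusted p = 0.58, edgeR) and RT1-M2 (-0.85, adjusted p = 0.823, edgeR) and the class II chains RT1-Bb (-0.79, adjusted p = 0.951, edgeR) and RT1-Da (-0.40, adjusted p = 0.992, edgeR). DESeq2 called RT1-CE5 (adjusted p = 0.00567), RT1-CE3 (adjusted p = 0.031) and RT1-CE10 (adjusted p = 0.0227).

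At day 63 most members were lower in the early weaned livers, but none passed the test. Log2 changes were negative for 26 of the 28 tested members, 18 of 18 in class I and 6 of 8 in class II, with medians of -0.57 and -0.77 against -0.01 over all genes. The edgeR test called 0 of 28, as it called 0% of all genes, with 3 members at an unadjusted p under 0.05 (6.05% of all genes) and 0 calls by DESeq2 and by limma. In 8 members every early weaned library lay below every control, where 13.7% of all genes did so. These were RT1-CE5 (-0.69, SE 0.22, adjusted p = 0.679, edgeR), RT1-A2 (-0.70, adjusted p = 0.857, edgeR), RT1-CE1, RT1-CE3, RT1-CE4, RT1-T24-1, RT1-T24-3 and, of class II, RT1-Db1 (-1.71, SE 0.648, adjusted p = 0.768, edgeR). Cd74 stood at -1.04 (SE 0.496, adjusted p = 0.822, edgeR) and RT1-Ba at -1.61 (adjusted p = 0.827, edgeR). Without day 63 control replicate 1, log2 changes were negative for 20 of 28 members, 16 of 18 in class I and 3 of 8 in class II, with medians of -0.42 and 0.09. Cd74 then stood at -0.03, RT1-Da at 0.16, RT1-Ba at 0.02, RT1-Db1 at -0.32 and RT1-Bb at 0.46, and the DO chains RT1-DOa and RT1-DOb at 1.01 and 0.71. In class I the values without that library were -0.56 for RT1-CE5, -0.53 for RT1-CE4, -0.37 for RT1-A2, -0.09 for RT1-A1, -0.04 for RT1-CE7 and 0.56 for RT1-M2.

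Marker lists of cells that carry MHC were also lower in these early weaned livers, with 0 markers called. Log2 changes were negative for 13 of 13 macrophage and Kupffer cell, 7 of 7 sinusoidal endothelial, 7 of 7 B cell, 9 of 10 T and NK cell and 7 of 8 dendritic cell markers. Day 63 control replicate 1 was the highest of its group for the summed macrophage (912 FPKM against 508 and 454), dendritic (8.25 against 4.94 and 4.92), B cell (22.5 against 16.6 and 13.2) and T and NK cell markers (24.9 against 15.5 and 16.8), but not for the sinusoidal endothelial ones. Without it, 9 of 13, 7 of 7, 5 of 7, 8 of 10 and 3 of 8 markers were negative, in the order of the lists above. Their part in the RT1 levels was not tested.

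RT1-CE5, RT1-CE3 and RT1-CE10 were above the controls on average at day 23 and below them at day 63. The interaction was -1.69 for RT1-CE5 (SE 0.312, unadjusted p = 0.000211, adjusted p = 0.331, edgeR), -1.95 for RT1-CE3 (SE 0.467, adjusted p = 0.787, edgeR) and -3.99 for RT1-CE10 (SE 1.29, adjusted p = 1, edgeR). Without day 63 control replicate 1 the interaction was -1.57, -1.81 and -3.48 for these genes, in that order. With DESeq2, which called 46 of all genes, the adjusted p was 0.000458 for RT1-CE5 and 0.0387 for RT1-CE3. The genes of this paragraph were picked for their change of direction, so these values describe it and are no separate support.

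In the Sprague Dawley table at day 211, class I stood high in early weaned libraries 1 and 3 and lower in library 2. Summed class I levels were 185 to 255 FPKM in the controls, 392, 242 and 679 FPKM in the early weaned libraries, and 308 to 445 FPKM with leucine. RT1-S3, the most abundant class I member here, read 112, 112 and 98.1 FPKM in the controls, 152, 125 and 231 FPKM in the early weaned libraries, and 137, 129 and 146 FPKM with leucine. Every control of RT1-S3 lay below every early weaned and every leucine library. RT1-CE7 read 10.2, 11.7 and 10.3 FPKM in the controls, 28.3, 15.8 and 28.7 FPKM in the early weaned libraries and 12.1, 17.6 and 18.6 FPKM with leucine. RT1-CE5 read 25.2, 13 and 11.5 FPKM, then 63.2, 13.1 and 67.6 FPKM, then 23.9, 41.2 and 51.9 FPKM in the same order of groups. RT1-CE4 read 5.38, 4.8 and 2.55 FPKM, then 16, 5.06 and 17.7 FPKM, then 5.16, 8.89 and 8.09 FPKM. Early weaned library 2 lay within the range of the controls for RT1-CE5 and RT1-CE4.

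The RT1-A and remaining C/E genes were uneven among single libraries of a group. RT1-A2 read 41.1, 13.4 and 13.3 FPKM in the controls, 19.4, 18 and 177 FPKM in the early weaned libraries and 43.3, 85.8 and 120 FPKM with leucine. RT1-A1 read 12.3, 29.4 and 12.8 FPKM, 42.2, 28.4 and 50.1 FPKM, and 15.9, 31.2 and 33.1 FPKM. The early weaned groups of both genes overlapped their controls. RT1-CE1 read 0.705, 0.688 and 0.611 FPKM, 2.42, 0.777 and 10.7 FPKM, and 1.32, 3.9 and 4.08 FPKM, with every control lowest. RT1-CE10 read 3.5, 0.652 and 0.653 FPKM, 16.5, 1.04 and 53.5 FPKM, and 5.08, 31.5 and 33.6 FPKM. RT1-CE3 read 3.34, 0.159 and 2.22 FPKM, 6.26, 1.2 and 0.375 FPKM, and 3.37, 5.48 and 0.719 FPKM. Both genes spread widely within each group. RT1-N2 read 14.1, 0 and 0 FPKM in the controls, 0.0282, 0.0868 and 4.45 FPKM in the early weaned libraries and 21.9, 2.21 and 2.87 FPKM with leucine. Its count was 1508, 0 and 0 in the controls, so the gene was counted in 1 of 3. The limit that a count of 0 allows, 3 fragments, was taken as 12 count units. That assumes about 4 units per fragment, because multiples of 4 are frequent among low counts, although most low counts are not multiples of 4. RT1-N3, of the same N group, was above 0 in all 9 libraries, at 7.62, 1.81 and 1.8 FPKM, 5.94, 3.15 and 6 FPKM, and 8.4, 2.51 and 1.88 FPKM. RT1-T24-3 read 3.5, 2.93 and 2.57 FPKM, 3.48, 3.7 and 2.28 FPKM, and 4.99, 4.92 and 5.12 FPKM, so its 3 leucine libraries were close together and above all others. RT1-T24-4 (10.3 to 26.1 FPKM), RT1-M2 (0.779 to 3.24 FPKM), RT1-M3-1 (0.846 to 5.5 FPKM) and RT1-M6-1 (0.396 to 1.44 FPKM) made up the other described class I members, with RT1-T24-1 at 1.06, 0.0479 and 0.671 FPKM, 1.53, 1.05 and 1.21 FPKM, and 0.964, 1.71 and 1.53 FPKM.

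Class II at day 211 was again led by Cd74. It read 80.4, 140 and 73.4 FPKM in the controls, 149, 84.9 and 150 FPKM in the early weaned libraries and 75.3, 66.5 and 68.3 FPKM with leucine. RT1-Da read 18.1, 27.9 and 14.3 FPKM, 26.5, 17.1 and 30.9 FPKM, and 16, 15.7 and 13.9 FPKM. For both genes the early weaned libraries overlapped the controls and lay above all 3 leucine libraries. RT1-Db1 read 4.65, 7.28 and 2.75 FPKM, 12.8, 2.75 and 15.5 FPKM, and 3.44, 9.76 and 10.1 FPKM. RT1-Ba read 11.7, 22.1 and 8.68 FPKM, 37.2, 12.2 and 39.5 FPKM, and 8.21, 25.4 and 25.9 FPKM. RT1-Bb read 4.6, 10.9 and 6.59 FPKM, 10, 6.18 and 12.2 FPKM, and 3.93, 7.14 and 6.22 FPKM. Early weaned libraries 1 and 3 were above library 2 for all 5 of these genes, and each of RT1-Db1, RT1-Ba and RT1-Bb overlapped among the 3 groups. Ciita read 0.633, 0.737 and 0.462 FPKM, 0.618, 0.807 and 1.18 FPKM, and 0.607, 0.484 and 0.45 FPKM, with the leucine libraries lowest against the early weaned ones. RT1-DMa read 1.08, 1.86 and 1.56 FPKM, 2, 1.68 and 2.68 FPKM, and 1.72, 1.3 and 1.37 FPKM. RT1-DMb read 2.39, 1.21 and 4.26 FPKM, 5.46, 4.59 and 6.85 FPKM, and 4.29, 3.96 and 2.86 FPKM, with its early weaned libraries above all others. RT1-DOa read 1.2, 0.302 and 0.637 FPKM, 1.79, 0.723 and 1.28 FPKM, and 0.664, 1.31 and 0.909 FPKM, and RT1-DOb 0.493, 0.18 and 0.496 FPKM, 0.232, 0.859 and 0.79 FPKM, and 0.41, 0.324 and 0.2 FPKM, with overlap among the groups.

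No member passed the edgeR test between early weaned and control livers at day 211, where 0.719% of all genes did. At an unadjusted p under 0.05 there were 9 members (17.3% of all genes). DESeq2 called 3 of the 28, beside 1122 of all genes, and limma called 0. Log2 changes were positive for 24 of 28 members, 14 of 18 in class I and 8 of 8 in class II, with medians of 0.90 and 0.56 against 0.02 over all genes. In 6 members every early weaned library lay above every control, where 20.8% of all genes did so, a share close to that of the members. RT1-CE7 came nearest, at a log2 change of 0.94 (SE 0.223, adjusted p = 0.0785, edgeR), followed by RT1-CE4 at 1.36 (SE 0.424, adjusted p = 0.142, edgeR), RT1-CE1 at 2.52 (SE 0.797, adjusted p = 0.147, edgeR) and RT1-CE10 at 3.66 (SE 1.25, adjusted p = 0.177, edgeR). RT1-S3 stood at 0.44 (SE 0.186, adjusted p = 0.269, edgeR), RT1-A1 at 0.90 (adjusted p = 0.283, edgeR), RT1-A2 at 1.44 (SE 0.85, adjusted p = 0.436, edgeR) and RT1-CE5 at 1.30 (SE 0.531, adjusted p = 0.251, edgeR). Cd74 stood at 0.14 (SE 0.272, adjusted p = 0.859, edgeR) and RT1-Da at 0.07 (adjusted p = 0.935, edgeR).

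These results depended on single libraries. Without early weaned replicate 3, RT1-A2 stood at -0.43 (adjusted p = 0.803, edgeR), RT1-CE1 at 1.03 (adjusted p = 0.462, edgeR), RT1-CE10 at 2.25 (adjusted p = 0.451, edgeR) and RT1-S3 at 0.19 (adjusted p = 0.613, edgeR). Without early weaned replicate 2, 4 members passed in edgeR, beside 534 of 15490 genes, where 108 of all genes passed with all libraries. These members were RT1-CE7 at 1.15 (adjusted p = 0.0187), RT1-CE4 at 1.73 (adjusted p = 0.0247), RT1-CE1 at 3.02 (adjusted p = 0.0381) and RT1-CE5 at 1.74 (adjusted p = 0.0399). DESeq2 with all libraries, which called 1122 of all genes, called RT1-CE7 (adjusted p = 0.00372), RT1-CE4 (adjusted p = 0.0165) and RT1-CE1 (adjusted p = 0.00839). RT1-CE1, RT1-CE4, RT1-CE5 and RT1-CE7 overlap one another in the table's coordinates, RT1-CE4 and RT1-CE7 by 202499 bases, and so may share fragments. The class I pathway held genes that passed with all libraries. Tap1 read 6.36, 7.79 and 6.27 FPKM in the controls, 24.7, 11.6 and 30.1 FPKM in the early weaned libraries and 6.67, 5.9 and 6 FPKM with leucine, and rose by a log2 change of 1.46 (SE 0.27, adjusted p = 0.0493, edgeR). Tap2 rose by 1.39 (SE 0.235, adjusted p = 0.0416, edgeR), from a mean of 4.35 to 13.3 FPKM. Each of the 2 passed in 1 of the 6 fits that left out 1 library, the one without early weaned replicate 2, and without early weaned replicate 3 the adjusted p was 0.142 for Tap1 and 0.133 for Tap2 (edgeR). Summed interferon gamma axis genes were at 114 to 131, 119 to 301 and 107 to 118 FPKM in the 3 groups, and cholangiocyte markers at 8.26 to 13.5, 16.1 to 30.6 and 10.1 to 15.5 FPKM. Macrophage markers were at 162 to 405, 261 to 521 and 307 to 439 FPKM, dendritic cell markers at 4.15 to 6.11, 4.46 to 11.2 and 4.15 to 6.45 FPKM, and T and NK cell markers at 10.9 to 13, 13.2 to 20.1 and 10.1 to 16.8 FPKM. B cell markers were at 9.6 to 12.5, 11.5 to 15.2 and 13.1 to 31.3 FPKM. Sinusoidal endothelial markers were at 28.6 to 72.1, 48.3 to 76.3 and 64.9 to 78.1 FPKM. The part of all these cells in the RT1 levels was not tested.

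Leucine livers were compared with early weaned livers first. Against early weaned livers, log2 changes were negative in 8 of 8 class II members and 11 of 18 class I members, with medians of -0.42 and -0.08 against 0 over all genes. The edgeR test called 0 of 28 members, where 0.36% of all genes were called, with 3 at an unadjusted p under 0.05 (13.1% of all genes). DESeq2 called 1 of the 28, beside 791 of all genes, and limma called 0. In 7 members every leucine library lay below every early weaned library, where 17.8% of all genes did so, and in 1 every one lay above (5.07%). Cd74 stood at -0.69 (SE 0.274, adjusted p = 0.311, edgeR), from a mean of 128 to 70 FPKM, RT1-Da at -0.54 (SE 0.262, adjusted p = 0.437, edgeR) and Ciita at -0.60 (adjusted p = 0.458, edgeR), and none of the 3 genes overlapped between these groups. RT1-T24-3 was the one above, at 0.81 (SE 0.231, adjusted p = 0.153, edgeR), with an adjusted p of 0.0358 by DESeq2. Tap1 had a log2 change of -1.66 (SE 0.272, adjusted p = 0.0492, edgeR), from a mean of 22.1 to 6.19 FPKM, and was again called in 1 of the 6 fits that left out 1 library (highest adjusted p = 0.182, edgeR).

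Set against the controls, the same libraries that the early weaned livers were compared with, the leucine livers had 0 of 28 members called by edgeR, where 0.0133% of all genes were. There were 5 at an unadjusted p under 0.05 (10.8% of all genes), and 0 by DESeq2 and by limma. Log2 changes were positive for 16 of 18 class I and 4 of 8 class II members, with medians of 0.60 and 0.15 against 0.01 over all genes. In 6 members every leucine library lay above every control, where 9.94% of all genes did so: RT1-CE10 (3.85, SE 1.26, adjusted p = 0.376, edgeR), RT1-CE1 (2.14, adjusted p = 0.419, edgeR), RT1-A2 (1.84, adjusted p = 0.477, edgeR), RT1-T24-3 (0.68, adjusted p = 0.389, edgeR), RT1-CE7 (0.52, adjusted p = 0.449, edgeR) and RT1-S3 (0.30, adjusted p = 0.576, edgeR). Cd74 stood at -0.55 (adjusted p = 0.5, edgeR).

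**Figure D4:**
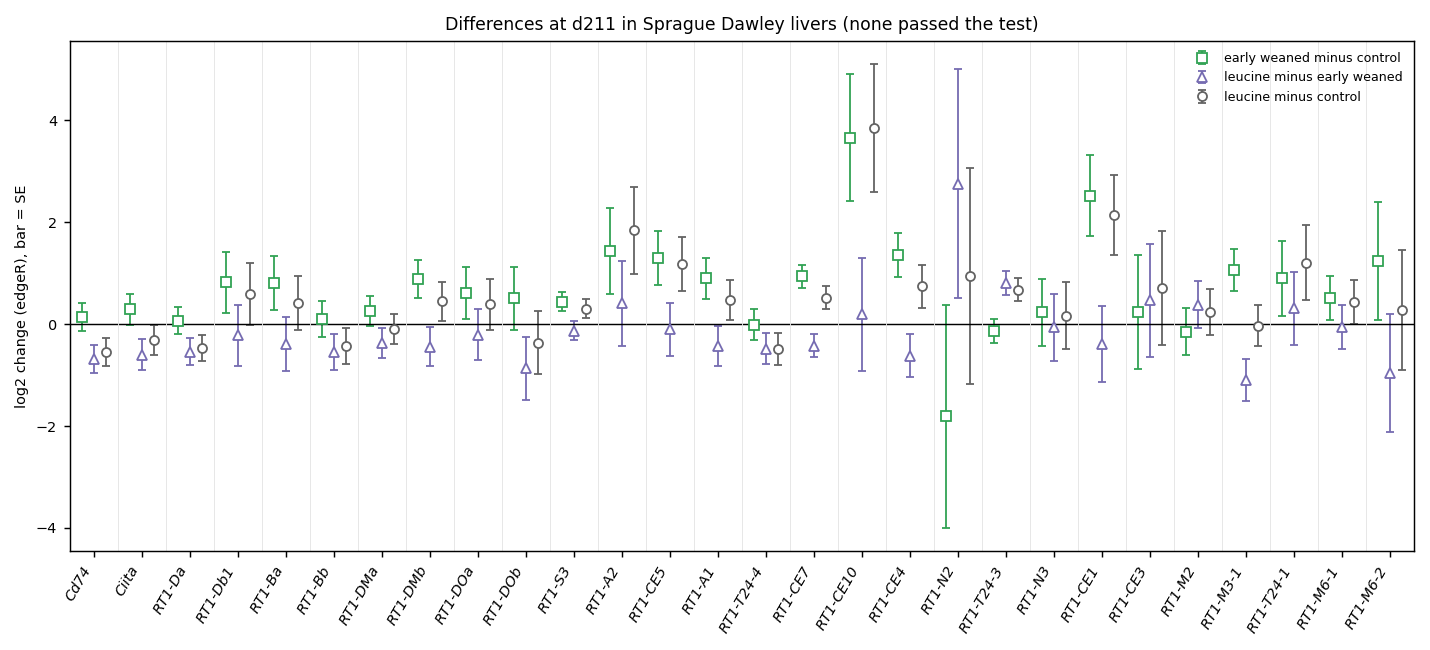
Log2 difference for each tested member (horizontal axis) in the 3 comparisons of Sprague Dawley livers at day 211; bars are standard errors, and filled points, of which there are none, would have an edgeR adjusted p under 0.05. Class I C/E genes lie above 0 in early weaned against control livers, and Cd74 and RT1-Da lie below 0 in leucine against early weaned livers at -0.69 and -0.54.

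Members of a pair differed in how closely their levels kept step. The ratio of Cd74 to RT1-Da in FPKM was nearly constant, from 4.56 to 6.26 across the 12 Wistar libraries (a 1.37-fold range) and from 4.22 to 5.61 across the 9 Sprague Dawley libraries (1.33-fold), while Cd74 itself went from 17.4 to 434 FPKM. The alpha and beta chains kept step less well: RT1-Ba over RT1-Bb went from 1.22 to 6.05 in the Wistar table and from 1.32 to 4.16 in the Sprague Dawley table, and RT1-Da over RT1-Db1 from 1.7 to 5.41 and from 1.38 to 6.23. Among class I pairs, RT1-CE5 over RT1-CE7 ranged 2.58-fold in the Wistar table and 3.36-fold in the Sprague Dawley table. RT1-A2 over RT1-A1 went from 1.61 to 8.65 in the Wistar table, a 5.37-fold range, and from 0.457 to 3.62 in the Sprague Dawley table, a 7.92-fold range. In the latter it was 3.32, 0.457 and 1.04 in the controls, 0.46, 0.634 and 3.53 in the early weaned libraries and 2.72, 2.75 and 3.62 with leucine, so both low and high ratios occurred in controls and in early weaned livers. RT1-CE10 over RT1-CE7 ranged 19.7-fold in the Wistar table and 33.3-fold in the Sprague Dawley table, from 0.0559 to 1.86 there. RT1-N2 over RT1-N3 ranged 21.4-fold in the Wistar table and went from 0 to 2.61 in the Sprague Dawley table.

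**Figure D5:**
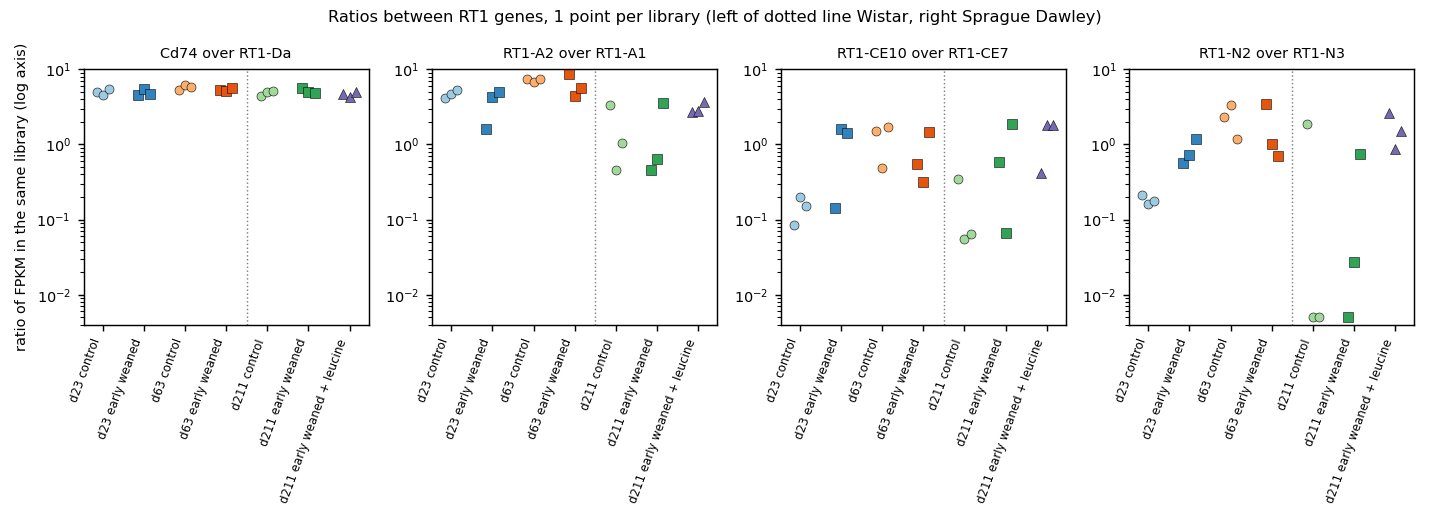
Ratios of FPKM between members (log axis) in each library, by group, with the tables apart; points are libraries and a ratio of 0 is drawn at the lowest level shown. Cd74 over RT1-Da stays between 4.22 and 6.26 in all 21 libraries, while RT1-A2 over RT1-A1 and RT1-CE10 over RT1-CE7 scatter within groups.

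The spread among libraries of 1 group set the same genes apart. On log2(FPKM + 0.1), the within-group SD was 3.07 for RT1-N2 in the Sprague Dawley table, above 99.8% of 12741 genes, 2.01 for RT1-CE10 (above 99.3%), 1.8 for RT1-CE3 (above 98.8%) and 1.28 for RT1-A2 (above 96.5%), where the median gene had 0.287. RT1-S3 at 0.271 and RT1-T24-3 at 0.247 lay below that median, and Cd74 had 0.401. In the Wistar table RT1-N2 (1.51, above 97.9% of 13128 genes) and RT1-CE10 (1.32, above 96.5%) again spread most, and RT1-CE7 had the smallest spread of the described members at 0.249, where the median gene had 0.323.

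Genes outside the set whose levels moved most closely with 2 of its members were listed as a description, by the correlation of log2(FPKM + 1) after each group's mean was taken out, among genes at 1 FPKM or more in at least 3 libraries. For Cd74 over the 12 Wistar libraries (11681 genes) they were AABR07018269 (r = 0.961), Cxcl9 (0.956), Ptprcap (0.924), MGC105567 (0.914) and Cxcl16 (0.91), with the members RT1-Da at 0.986 and RT1-Db1 at 0.898. Without day 63 control replicate 1, over 11 libraries, the values for these genes were 0.819, 0.813, 0.751, 0.557 and 0.607, with RT1-Da at 0.948 and RT1-Db1 at 0.458. Over the 9 Sprague Dawley libraries (11261 genes) they were Nr5a2 (0.99), Timp1 (0.975), Rapgef2 (0.972), Psd4 (0.969) and Cep89 (0.967), with RT1-Da at 0.96, and none of the 5 was on the Wistar list. For RT1-A2, the class I member of highest mean level in the Wistar table, they were Sec14l1 (0.925), Fmo1 (0.922), RGD1309104 (0.916), Megf9 (0.9) and Rnf34 (0.895), with RT1-CE10 at 0.845 and RT1-CE1 at 0.84. For RT1-S3, which took that place in the Sprague Dawley table, they were Fam117a (0.986), Dcaf4 (0.978), Stmn3 (0.977), Vsig10l (0.969) and Shkbp1 (0.967). All such values share library depth and normalization, and they are given without a p.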

How the data were processed

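Rat liver RNA, in 12 Wistar and 9 Sprague Dawley libraries, was sequenced after preparation with a SMARTER kit, per the labels' protocols. The authors deposited 1 table per strain with estimated counts per gene and FPKM per gene and library, per the file headers. Builds listed in the submitters' processing notes are GRCm38 and mm10, both of the mouse, yet the identifiers and coordinates in either table are of rat genes. The rat build, aligner and counting program were not given in the sources used here. Deposited counts are whole numbers, but 30.2% to 43.0% of the counts from 1 to 16 per library are multiples of 4, so they were treated as estimated counts and a fragment was taken as about 4 units. Most low counts are not multiples of 4, so this unit is an assumption. A listed FPKM of 0.0001 at a count of 0 was read as 0. Strand is not recorded, so overlapping genes on opposite strands cannot be told apart.

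Each table was fitted alone in edgeR 4.0.16 under R 4.3.3 (quasi-likelihood test, TMM scaling, genes kept by filterByExpr at a minimum count of 10, Benjamini-Hochberg adjustment over 15416 Wistar and 15019 Sprague Dawley genes, threshold 0.05). All groups of a table shared one estimate of the spread, and 28 of the 33 members passed the filter in each table. The SE of a log2 change is its size over the square root of the F statistic. Alternatives were DESeq2 1.42.0, limma 3.58.1 on log2(FPKM + 1) and log2(FPKM + 0.1), no filter, DESeq2 size factors, the replicate number as a block, leaving out each library, and counts divided by 4, the last chosen after seeing the data. The fit was tested on simulated data. Members, gene lists and motifs were chosen with earlier results of these data known.

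Genes named with their values in every library were those called in any comparison, the 6 most abundant described genes of each class, both partners, and described genes whose libraries differ at least 8-fold. Genes outside the set were named where called from a list, as B2m, Nlrc5 and Tap1, or as the 5 nearest in pattern. Deviations of Wistar libraries with the same replicate number correlated from -0.108 to 0.127, those with different numbers from -0.129 to 0.0903. In the Sprague Dawley table the ranges were -0.0902 to 0.122 and -0.101 to 0.127. Between day 23 controls and early weaned libraries, same-number values were 0.0446, 0.0671 and 0.127, the others -0.129 to 0.061. Between the early weaned ages, same-number values were 0.0305 to 0.0388, the others -0.0279 to -0.00966. Between the day 63 groups, same-number values were -0.108, -0.0563 and 0.0218, the others -0.0358 to 0.0903. Whether the numbers pair the libraries was not tested.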

Additional observations from a re-analysis of the deposited data

Results flagged for a closer look

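RT1-CE5 stood out because every early weaned library lay above every control at day 23 (22.6, 14.5 and 13.8 FPKM against 7.42, 8.29 and 9.15 FPKM) and below every control at day 63. Members were flagged by this crossing, so an interaction taken from the same values is no separate support for it. The share of all genes with such a crossing was not counted. The difference between the ages, as a weaning by age interaction, was -1.69 on the log2 scale (adjusted p = 0.331, edgeR). Over 19 alternatives it ranged from -1.83 to -1.44, with adjusted p-values from 0.000458 to 0.782.

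RT1-CE3 had the same pattern, with 1.87, 2.63 and 2.67 FPKM against 0.89, 0.64 and 1.19 FPKM at day 23 and lower early weaned levels at day 63. Its interaction was -1.95 (adjusted p = 0.787, edgeR), with a range from -2.19 to -1.46 and adjusted p-values from 0.0387 to 1. The table's intervals of RT1-CE3 and RT1-CE5 both overlap those of RT1-CE1 and RT1-CE4.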

How the results depend on the processing

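No log2 change past the threshold changed its sign under any alternative. Members called stayed within 1.5 times the edgeR number in 100 of 110 alternatives. Most of these 100 were alternatives that called 0 members where edgeR also called 0. DESeq2 called 3 members where edgeR called 0 for early weaning at day 23, 3 at day 211, 1 for leucine against early weaning and 2 for the interaction. Leaving out 1 library gave 0 to 4 members for early weaning at day 211 (4 without early weaned replicate 2), 12 to 19 for age in controls (17 with all libraries) and 9 to 13 for age in early weaned rats (18 with all libraries); elsewhere it gave 0. With the replicate block, 16 members were called for age in controls, 14 for age in early weaned rats and 0 in the other comparisons. Over all genes, edgeR, DESeq2 and the block gave 108, 1122 and 49 calls for early weaning at day 211, 54, 791 and 58 for leucine against early weaning, 2, 113 and 1 for early weaning at day 23, 0, 94 and 0 at day 63, 2, 200 and 5 for leucine against controls, 1, 46 and 0 for the interaction, and 2710, 4158 and 2156 for age in controls. Leaving out 1 library moved such all-gene counts widely: 646 to 6001 for age in controls (646 without day 23 control replicate 1, 744 without replicate 2, 6001 without replicate 3, 859 without day 63 control replicate 1), 1923 to 2997 for age in early weaned rats (4161 with all libraries), 2 to 534 for early weaning at day 211 and 1 to 539 for leucine against early weaning (534 and 539 without early weaned replicate 2, 2 and 1 without replicate 1). Only limma moved the median of all genes by over 0.1, by 0.14 and 0.19 for early weaning at day 211 and by -0.12 and -0.15 both for leucine against early weaning and for the interaction (pseudocounts 1 and 0.1), and by -0.13 for age in early weaned rats (pseudocount 0.1). At 3 libraries per group, levels under about 12 count units were taken as not distinct from 0, at the assumed 4 units per fragment.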

Other observations

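Outside RT1, 7 class I-like genes were measured in the Wistar table. From day 23 to day 63 Azgp1, a secreted class I-like protein linked to fat breakdown, rose by a log2 change of 0.70 in controls and 0.86 in early weaned rats. Procr, the endothelial protein C receptor, fell by 1.54 in controls (adjusted p = 0.00807, edgeR) and fell by 2.31 in early weaned rats. Hfe, which takes part in iron sensing, rose by 1.61 and Ulbp1 fell by 1.24 in early weaned rats. Procr and Hfe were called in all 6 fits that left out 1 library, Azgp1 in 3 of 6 in controls and 6 of 6 in early weaned rats, and Ulbp1 in 1 of 6.
At day 23, Cd274, which codes for the checkpoint ligand PD-L1, was the single call among the 15 genes of the interferon gamma axis (adjusted p = 0.0406, edgeR). Its counts were 0 in all 3 controls and 7, 8 and 8 units in the early weaned libraries. All were under the 12 units assumed as the limit of a count of 0, so no fold is given.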
